A study of Mus musculus with 9 samples.

Results

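The 9 genes described here encode secreted or membrane-bound chemokines of the CC family (Ccl2, Ccl7, Ccl8, Ccl11, Ccl19, Ccl20, Ccl25 and Ccl27a) and the CX3C family (Cx3cl1). They were taken by symbol, through the GENCODE M21 annotation, from the 55536 gene identifiers that each library was counted over. Libraries came from quadriceps muscle of C57BL/6 mice with volumetric muscle loss, an injury in which a piece of muscle is removed. The comparison asks how expression in 5 libraries labelled Il17ra-/- differs from expression in 4 libraries labelled wild type. Il17ra encodes a subunit through which several interleukin-17 cytokines signal. All 9 libraries share an age label of 6 weeks, a saline label and a harvest label of 1 week post surgery. PCL and a collection at 6 weeks stand instead in the text on RNA extraction. Which version holds was not settled by the sources used here. The design text speaks of animals in triplicate, and no label ties a library to an animal, a litter or a day. The labels give neither the exons the allele removes nor a cell type restriction of the knockout.

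Chemokines are small proteins that bind G-protein-coupled receptors on leukocytes and direct their migration along a gradient. CC chemokines carry a pair of adjacent cysteines near the start of the mature protein, and in CX3C chemokines other residues lie between the pair. Interleukin-17 acts on stromal and epithelial cells through NF-κB and C/EBP factors and through stabilised messenger RNA, and Ccl2, Ccl7 and Ccl20 are known as genes that it induces together with tumour necrosis factor. After muscle injury, CCR2 ligands draw monocytes into the tissue, where their descendants clear debris and support regeneration.

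The libraries held 31294089 to 46435401 counts in total. Levels are counts per 1000000 counts (CPM), scaled with TMM factors, which correct for composition. On this scale 3 counts corresponded to 0.0638 to 0.0984 CPM, and log2 fold changes are libraries labelled Il17ra-/- minus libraries labelled wild type. The targeted gene, Il17ra, averaged 208 ± 43.2 CPM (SD, n = 5) in the libraries labelled Il17ra-/- and 96.8 ± 19.7 CPM (SD, n = 4) in those labelled wild type (log2 fold change 1.11, SE 0.17, edgeR adjusted p = 0.00208). Its level therefore goes against a loss of the whole transcript in the libraries labelled Il17ra-/-, and every direction refers to the labels as given. Wild-type replicate 2 stood apart on the first principal component (40.0% of the variance), at −69.0 against −7.79 to 28.8 in the other libraries, and had the smallest total. Muscle transcripts were present, with summed CPM of 5 fibre genes at 2468 to 3417 in the libraries labelled Il17ra-/- and 949 to 2372 in those labelled wild type. Ptprc, the pan-leukocyte marker CD45, reached at most 0.461 CPM in the libraries labelled Il17ra-/- and 0.279 CPM in those labelled wild type.

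Ccl2 and Ccl7 fell in the libraries labelled Il17ra-/-, and no member rose past the threshold. The members were chosen with earlier results of these data known, so counts of members called are a description. Of the 9 members, 8 passed the filter on low counts and 2 of these were called lower at an adjusted p under 0.05, beside 1.71% of all 16039 tested genes called lower, 1.35% called higher and 3.06% called in either direction. Scaling to library totals alone called 330 genes higher and 232 lower, where TMM scaling called 217 higher and 274 lower. The log2 fold change was negative for each of the 8, with a median of −0.78, while 50.3% of all tested genes had a negative value and the median over all was −0.0027. Groups did not overlap for 3 members (Ccl2, Ccl7 and Ccl19), all lower in the libraries labelled Il17ra-/-, beside 4.56% of all tested genes that were lower without overlap, 4.63% that were higher and 9.18% in either direction. The remaining member, Ccl20, had no count in any library.

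**Figure D1:**
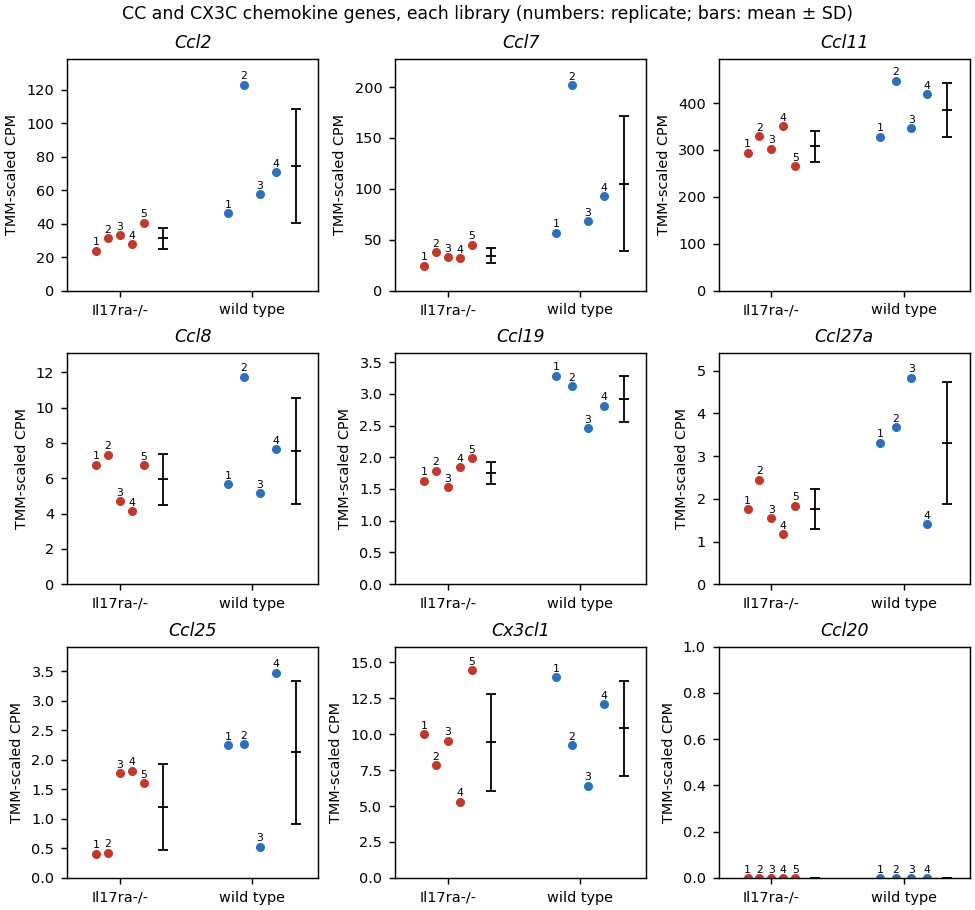
TMM-scaled CPM (y axis, linear, from 0) of the 9 chemokine genes in each library, with 5 libraries labelled Il17ra-/- in red on the left and 4 labelled wild type in blue on the right. Numbers give the replicate and black bars the mean ± SD. Groups are separate for Ccl2, Ccl7 and Ccl19, wild-type replicate 2 is the highest library for Ccl2, Ccl7, Ccl8 and Ccl11, and all libraries are at 0 for Ccl20.

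Ccl2 encodes the monocyte attractant that binds CCR2, and lies on the plus strand of chromosome 11 from 82035571 to 82037453 (GRCm38). It stood at 23.8, 31.2, 33.1, 27.8 and 40.5 CPM in replicates 1 to 5 labelled Il17ra-/-, against 46.3, 123, 57.5 and 70.5 CPM in replicates 1 to 4 labelled wild type. Every library labelled Il17ra-/- was below every library labelled wild type, and wild-type replicate 2 was the highest. Means were 31.3 ± 6.27 CPM (SD, n = 5) in the libraries labelled Il17ra-/- and 74.3 ± 33.9 CPM (SD, n = 4) in those labelled wild type, a 2.37-fold lower fitted level (log2 fold change −1.25, SE 0.24, edgeR adjusted p = 0.0113). An exact permutation test over the 9 libraries gave p = 0.0159 (two-sided), the smallest value it can give. Between 936 and 3749 counts stood behind each value.

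Ccl7 encodes a related monocyte attractant that binds CCR2 as well as other receptors, and starts 10.1 kb downstream of the start of Ccl2, from 82045712 to 82047525. It stood at 24.4, 37.6, 32.9, 31.6 and 45.1 CPM in replicates 1 to 5 labelled Il17ra-/-, against 56.7, 202, 68.0 and 92.9 CPM in replicates 1 to 4 labelled wild type. The order of libraries was close to that of Ccl2, with wild-type replicate 2 far above the other libraries and no overlap between the groups. Means were 34.3 ± 7.65 CPM (SD, n = 5) in the libraries labelled Il17ra-/- and 105 ± 66.4 CPM (SD, n = 4) in those labelled wild type, a 3.05-fold lower fitted level (log2 fold change −1.61, SE 0.31, edgeR adjusted p = 0.0108; exact permutation p = 0.0159).

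The size of both falls rested in part on wild-type replicate 2. Without it, the log2 fold change was −0.89 for Ccl2 (edgeR adjusted p = 0.00793) and −1.08 for Ccl7 (edgeR adjusted p = 0.00413). With Il17ra-/- replicate 1 also left out, the values were −0.81 (edgeR adjusted p = 0.0121) and −0.98 (edgeR adjusted p = 0.00550). Both genes were called under all 18 alternatives.

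Markers of macrophages, which make and answer to these chemokines, were low. The summed level of 10 macrophage genes was 14.7 to 22.7 CPM in the libraries labelled Il17ra-/- and 29.6 to 44.7 CPM in those labelled wild type. Cd68 was the 1 of 9 tested macrophage genes that was called (log2 fold change −2.80, edgeR adjusted p = 2.17e-04). The sum of the other 9 genes overlapped, at 12.7 to 20.8 CPM in the libraries labelled Il17ra-/- and 14.0 to 20.5 CPM in those labelled wild type. Mrc1 went the other way without overlap, at 1.00 to 1.73 CPM in the libraries labelled Il17ra-/- and 0.196 to 0.775 CPM in those labelled wild type (log2 fold change 1.30, edgeR adjusted p = 0.285). Adgre1, Csf1r, Cd14 and C1qa also had positive log2 fold changes, and Lyz2, C1qb and C1qc negative ones. Itgam was at 0 in every library labelled Il17ra-/- and reached 0.0822 CPM in 1 labelled wild type. The 5 markers of fibro-adipogenic progenitors, connective tissue cells of muscle, summed to 21799 to 28052 CPM in the libraries labelled Il17ra-/- and 25685 to 27490 CPM in those labelled wild type, with none called. The sum was mostly Dcn and Col1a1. Cd34 was lower without overlap, at 1849 to 2026 CPM in the libraries labelled Il17ra-/- and 2036 to 2582 CPM in those labelled wild type (log2 fold change −0.25, edgeR adjusted p = 0.219). The groups overlapped for Ly6a (−0.35), Dcn (−0.12), Col1a1 (0.02) and Pdgfra (0.23). Of the 5 muscle fibre genes, Acta1 rose and the sums given above did not overlap; their part in the falls of Ccl2 and Ccl7 was not tested. In such bulk libraries, fewer cells of a type and less RNA per cell cannot be told apart. Averaged over all 9 libraries, Dcn stood at 12607 CPM and Col1a1 at 8698 CPM. Acta1 averaged 1293 CPM and Ptprc 0.198 CPM. Whether the libraries hold all the cells of injured muscle was not tested. Low leukocyte markers and receptors can therefore not be read as a trait of the injury.

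Ccl11 and Ccl8, the other members of the chromosome 11 cluster, did not pass. Ccl11 encodes eotaxin, the CCR3 ligand that attracts eosinophils, and lies from 82057823 to 82062955. It stood at 294, 329, 303, 351 and 265 CPM in replicates 1 to 5 labelled Il17ra-/-, against 328, 448, 346 and 419 CPM in replicates 1 to 4 labelled wild type. The groups overlapped, and the log2 fold change was −0.32 (SE 0.12, edgeR adjusted p = 0.205; exact permutation p = 0.0794). The 4 eosinophil markers summed to at most 0.352 CPM in the libraries labelled Il17ra-/- and 0.558 CPM in those labelled wild type, with Il5ra at 0 throughout. Ccl8 encodes a chemokine that in mouse acts through CCR8, and lies from 82115185 to 82116799. It stood at 6.77, 7.34, 4.70, 4.12 and 6.72 CPM in replicates 1 to 5 labelled Il17ra-/-, against 5.67, 11.7, 5.14 and 7.63 CPM in replicates 1 to 4 labelled wild type. The groups overlapped widely, and the log2 fold change was −0.35 (SE 0.27, edgeR adjusted p = 0.576) and −0.05 without wild-type replicate 2.

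Of the 2 remaining genes of the cluster, Ccl12, whose product is a further CCR2 ligand of the mouse, lies between Ccl11 and Ccl8. It had at most 22 counts in a library labelled Il17ra-/- and 6 in one labelled wild type, and did not pass the filter. Ccl1, which encodes a CCR8 ligand, had no count in any library.

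**Figure D2:**
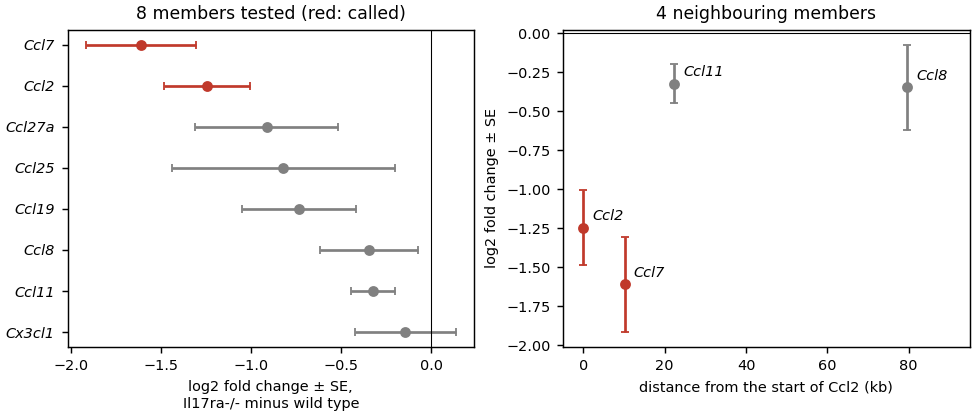
Log2 fold changes with SE, libraries labelled Il17ra-/- (n = 5) minus libraries labelled wild type (n = 4), for the 8 tested members (left) and for the 4 tested members of the chromosome 11 cluster by distance in kb from the start of Ccl2 (right). Called genes are red. Ccl2 and Ccl7 lie at −1.25 and −1.61, and Ccl11 and Ccl8, at 22.3 and 79.6 kb, lie at −0.32 and −0.35.

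Ratios within a library do not depend on scaling and describe how unequal the change was between these neighbours. They were chosen after values were seen, with Ccl2 and Ccl7 already called and Ccl11 and Ccl8 not. Their p-values are therefore no independent support. The ratio of Ccl7 to Ccl11, in counts per kb of exon, was 0.112, 0.154, 0.147, 0.122 and 0.230 in replicates 1 to 5 labelled Il17ra-/-, against 0.233, 0.608, 0.265 and 0.300 in replicates 1 to 4 labelled wild type. The groups were separate, by a narrow gap between Il17ra-/- replicate 5 and wild-type replicate 1. Its log2 value differed by −1.14, being lower in the libraries labelled Il17ra-/- (−2.76 ± 0.40, n = 5, against −1.62 ± 0.62 in those labelled wild type, n = 4; exact permutation p = 0.0159, 0.0317 adjusted over the 6 ratios computed). Without wild-type replicate 2 the difference was −0.84.

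The log2 ratio of Ccl2 to Ccl11 averaged −3.39 ± 0.39 in the libraries labelled Il17ra-/- (n = 5) and −2.54 ± 0.41 in those labelled wild type (n = 4; exact permutation p = 0.0317, adjusted p = 0.0381), and groups overlapped. Against Ccl8, the log2 ratio was lower for Ccl2 and for Ccl7, without overlap (differences −0.86 and −1.15, exact permutation p = 0.0159, adjusted p = 0.0317 for each). The ratio of Ccl2 to Ccl7 differed by 0.29 (log2), being higher in the libraries labelled Il17ra-/- (−0.63 ± 0.11, n = 5, against −0.92 ± 0.21 in those labelled wild type, n = 4; exact permutation p = 0.0317, adjusted p = 0.0381), so that the fall was larger for Ccl7. The calls for Ccl2 over Ccl11 and Ccl2 over Ccl7 were each lost in 7 of the 9 fits that leave out 1 library, with p up to 0.0714. The log2 ratio of Ccl11 to Ccl8 differed by −0.01 between the groups, which overlapped (exact permutation p = 1).

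**Figure D3:**
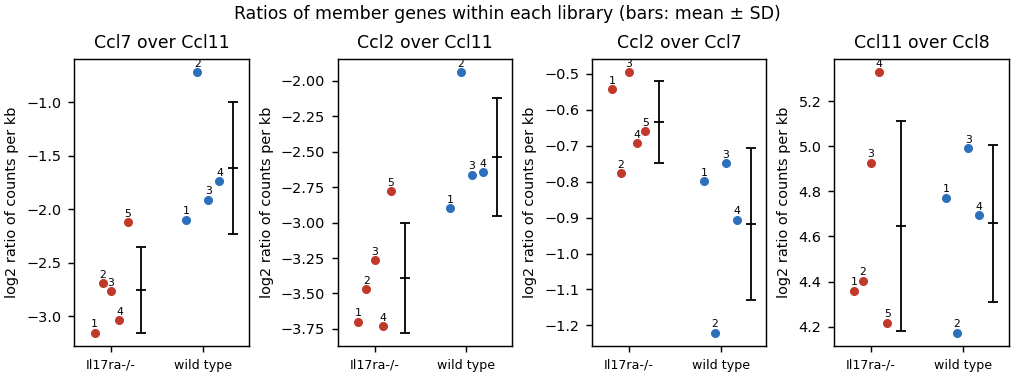
Log2 ratios of counts per kb of exon between pairs of member genes in each library, with 5 libraries labelled Il17ra-/- in red on the left and 4 labelled wild type in blue on the right. Numbers give the replicate and bars the mean ± SD. Ccl7 over Ccl11 separates the groups, Ccl11 over Ccl8 overlaps, and wild-type replicate 2 is at an extreme in all 4 panels.

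Among all 12530 tested genes with a mean of at least 1 CPM that were compared, the gene whose profile over the 9 libraries was nearest to that of Ccl2 was Ccl7. Nearness was the root mean square difference of centred log2(CPM + 0.5), which was 0.201 for this pair. Next to Ccl2 came Cxcl1, which encodes a neutrophil attractant (0.202), and Slc6a13, a GABA transporter gene (0.220). Ccl7 was nearest to Ccl2, then to Cxcl1 (0.245) and to Mt2, a metallothionein gene (0.263). Ccl11 stood at rank 1262 for Ccl2 and 1341 for Ccl7, and Ccl8 at 989 and 767. The log2 fold changes of Cxcl1, Mt2 and Slc6a13 were −1.24, −1.51 and −1.08. Nearness to 2 genes that fell, over the same libraries, fixed this direction, so the values are a description. The profiles share libraries and depth, and the high values in wild-type replicate 2 weigh on this measure.

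**Figure D4:**
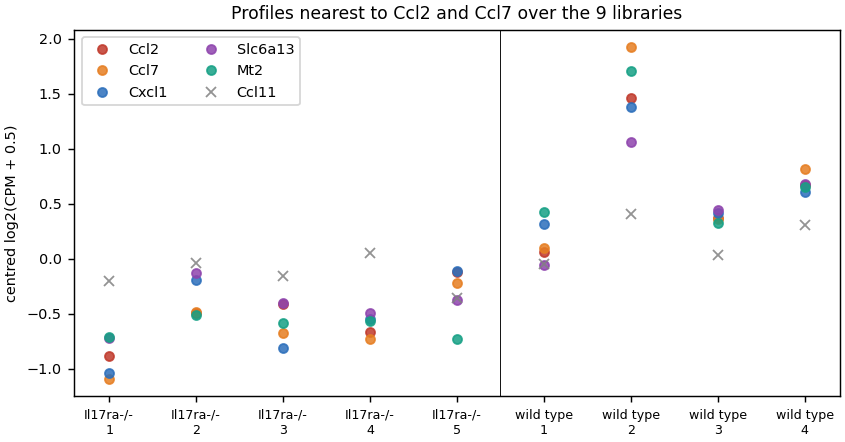
Centred log2(CPM + 0.5) of Ccl2, Ccl7 and their nearest genes in 5 libraries labelled Il17ra-/- (left) and 4 labelled wild type (right), with Ccl11 as crosses. All of the nearest genes, and Ccl11 too, have their highest value in wild-type replicate 2, and Ccl11 varies less than they do.

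Ccl19 encodes a CCR7 ligand that guides dendritic cells and T cells, and lies on the minus strand of chromosome 4 from 42754525 to 42756577. It was low, at 1.63, 1.79, 1.53, 1.84 and 1.98 CPM in replicates 1 to 5 labelled Il17ra-/-, against 3.29, 3.12, 2.46 and 2.81 CPM in replicates 1 to 4 labelled wild type. The groups did not overlap, and each was narrow. The edgeR test over all genes did not call it (log2 fold change −0.73, SE 0.32, adjusted p = 0.263), while the exact permutation p was 0.0159, not corrected for the 8 members compared in this way. Between 64 and 120 counts stood behind each value. A second identifier named Ccl19 on an unplaced scaffold, and the pseudogene Ccl19-ps3, had no count, and Ccl19-ps1 had at most 27, so reads from near-identical copies make the level uncertain. The 5 dendritic cell markers summed to 9.65 to 18.7 CPM in the libraries labelled Il17ra-/- and 7.14 to 13.1 CPM in those labelled wild type, and none was called. The defining Itgax and Flt3 were near 0, at most 0.0708 and 0 CPM in the libraries labelled Il17ra-/- and 0 and 0.0287 CPM in those labelled wild type. The 4 lymphatic endothelial markers summed to 176 to 209 CPM in the libraries labelled Il17ra-/- and 182 to 306 CPM in those labelled wild type, mostly from Pdpn, and none was called. Pdpn alone stood at 159 to 190 CPM in the libraries labelled Il17ra-/- and 172 to 290 CPM in those labelled wild type (log2 fold change −0.34). Prox1 went the other way without overlap, at 14.2 to 17.7 CPM in the libraries labelled Il17ra-/- and 6.83 to 13.4 CPM in those labelled wild type (log2 fold change 0.58, edgeR adjusted p = 0.145). Lyve1 did not exceed 2.36 CPM and Flt4 0.532 CPM in any library.

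Ccl27a encodes a CCR10 ligand known from skin, and lies on the minus strand of chromosome 4 from 41769467 to 41774247. Its levels were 1.76, 2.45, 1.55, 1.17 and 1.84 CPM in replicates 1 to 5 labelled Il17ra-/-, against 3.31, 3.67, 4.83 and 1.41 CPM in replicates 1 to 4 labelled wild type. Wild-type replicate 4 lay among the libraries labelled Il17ra-/-, and the gene did not pass (log2 fold change −0.91, SE 0.40, edgeR adjusted p = 0.265). Its exons share 8 bases with those of Il11ra1, a cytokine receptor gene on the other strand at 236 ± 16.2 CPM (n = 5) in the libraries labelled Il17ra-/- and 304 ± 71.8 CPM (n = 4) in those labelled wild type. Ccl27b, a near-identical copy, had no count, and reads that map to several copies were not counted. Epithelial markers, summed over 5 genes, ranged from 0.976 to 44.8 CPM in the libraries labelled Il17ra-/- and from 2.03 to 26.5 CPM in those labelled wild type.

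Ccl25 encodes a CCR9 ligand best known from thymus and small intestine, and lies on the plus strand of chromosome 8 from 4325210 to 4360020. It stood at 0.407, 0.426, 1.77, 1.82 and 1.60 CPM in replicates 1 to 5 labelled Il17ra-/-, against 2.25, 2.26, 0.531 and 3.47 CPM in replicates 1 to 4 labelled wild type. Each group held both low and high libraries, and the gene did not pass (log2 fold change −0.82, SE 0.62, edgeR adjusted p = 0.553). Its log2 fold change was −0.47 without wild-type replicate 4 and −1.14 without wild-type replicate 3. Of its 7445 exon bases, 204 are shared with Elavl1, which encodes an RNA-binding protein, on the other strand.

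Cx3cl1 encodes fractalkine, the CX3CR1 ligand that is made as a membrane protein and shed by the proteases of Adam10 and Adam17. It lies on the plus strand of chromosome 8 from 94772009 to 94782427. Levels were 9.97, 7.85, 9.53, 5.29 and 14.4 CPM in replicates 1 to 5 labelled Il17ra-/-, against 13.9, 9.22, 6.40 and 12.1 CPM in replicates 1 to 4 labelled wild type. The groups covered the same range (log2 fold change −0.14, SE 0.28, edgeR adjusted p = 0.844), and the sign turned when wild-type replicate 1 or Il17ra-/- replicate 4 was left out. Endothelial cells are a known source, and none of their 5 markers was called. Their sum, 301 to 379 CPM in the libraries labelled Il17ra-/- and 261 to 456 CPM in those labelled wild type, was mostly Tek, which alone stood at 239 to 330 CPM in the libraries labelled Il17ra-/- and 229 to 365 CPM in those labelled wild type (log2 fold change −0.0014). Pecam1 did not exceed 2.06 CPM in the libraries labelled Il17ra-/- or 3.38 CPM in those labelled wild type (log2 fold change −0.83, edgeR adjusted p = 0.342). Vwf did not exceed 3.00 CPM in the libraries labelled Il17ra-/- or 4.16 CPM in those labelled wild type (log2 fold change −0.89, edgeR adjusted p = 0.396).

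Ccl20 encodes the only known chemokine ligand of CCR6, and lies on the plus strand of chromosome 1 from 83116766 to 83119167. Its count was 0 in all 9 libraries, which at 3 counts allows up to 0.0638 to 0.0813 CPM in a library labelled Il17ra-/- and 0.0822 to 0.0984 CPM in one labelled wild type, counting error only. A difference between the groups was therefore not detectable at this depth.

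The RefSeq table of promoter windows (GRCm38.p6) held 6 of the 9 members, and Ccl2, Ccl7 and Ccl11 are named only. The 250 bases before the annotated start are shown for Ccl8, the neighbour of the called genes, for Cx3cl1, and for Ccl20, which had no count. Capitals mark motif matches, and coordinates are chr11:82114935-82115184, chr8:94771930-94772179 and chr1:83116516-83116765, all on the plus strand.
Ccl8: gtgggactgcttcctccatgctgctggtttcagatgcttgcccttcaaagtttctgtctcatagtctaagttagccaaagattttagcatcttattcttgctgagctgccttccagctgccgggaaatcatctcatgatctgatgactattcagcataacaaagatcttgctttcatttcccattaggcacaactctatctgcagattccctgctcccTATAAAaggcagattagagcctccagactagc
Cx3cl1: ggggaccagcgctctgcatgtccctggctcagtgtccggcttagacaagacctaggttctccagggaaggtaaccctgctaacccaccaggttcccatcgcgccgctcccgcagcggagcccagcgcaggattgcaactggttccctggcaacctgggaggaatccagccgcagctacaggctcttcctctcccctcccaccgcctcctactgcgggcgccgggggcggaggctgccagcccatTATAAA
Ccl20: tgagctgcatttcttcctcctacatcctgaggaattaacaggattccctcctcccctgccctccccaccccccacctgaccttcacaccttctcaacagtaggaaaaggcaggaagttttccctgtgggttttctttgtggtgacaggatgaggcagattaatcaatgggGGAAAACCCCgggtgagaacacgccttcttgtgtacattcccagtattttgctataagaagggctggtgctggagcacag
The motifs, searched on both strands, were the TATA box (TATAAA), AP-1 (TGANTCA), C/EBP (TTGCNNAA) and the degenerate κB consensus. They were found in 12.4%, 6.75%, 9.56% and 7.25% of all 32851 windows of this length in the table. Ccl8 and Cx3cl1 hold a TATAAA, at −32 and −6 from the RefSeq start, and no other match. The RefSeq start lies inside the gene as GENCODE annotates it for Cx3cl1, for Ccl19, for 1 of the 2 Ccl25 windows and for the 3 Ccl27a windows. Ccl20 holds the only κB match among the 6 members, at −80. The window of Ccl19 holds none of the 4 motifs, 1 of the 2 Ccl25 windows holds a TATAAA, and of the 3 Ccl27a windows 1 holds an AP-1 match and 2 overlapping ones hold the same C/EBP match.

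Levels of different genes can be set side by side only per length. In CPM per kb of exon, averaged over all 9 libraries, the order was Ccl11 (317), Ccl7 (82.0), Ccl2 (44.3), Ccl8 (13.0), Ccl19 (2.62), Cx3cl1 (2.51), Ccl27a (1.03), Ccl25 (0.217) and Ccl20 (0). The order of Ccl19 and Cx3cl1 turned between the groups, at 2.02 against 2.40 CPM per kb in the libraries labelled Il17ra-/- and 3.37 against 2.65 CPM per kb in those labelled wild type. Ranges over libraries overlapped between Ccl11 and Ccl7, through wild-type replicate 2 (245 to 414 against 30.5 to 252), and between Ccl7 and Ccl2, although Ccl7 was above Ccl2 within each library. They also overlapped between Ccl2 and Ccl8, between Ccl19 and Cx3cl1, and between Cx3cl1 and Ccl27a. Without division by length, Ccl11 made up between 55.8% and 82.6% of all CPM of the 9 members in a library. These are shares of counts, which also depend on exon length.

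The signalling receptors that leukocytes use for these ligands were low or at 0, and the atypical receptors, which bind chemokines without classical signalling, were higher. Of 16 receptor and decoy genes, 8 passed the filter, none was called (all tested genes 3.06%), and the median log2 fold change was −0.22. The gene of the Ccl2 and Ccl7 receptor, Ccr2, did not exceed 0.431 CPM in a library labelled Il17ra-/- or 0.623 CPM in one labelled wild type. Ccr6 and Ccr8 had no count, Ccr3 at most 2 in a library labelled Il17ra-/- and none in those labelled wild type, and Cx3cr1 at most 6 counts in a library labelled Il17ra-/- and 9 in one labelled wild type. Ccr9, which encodes the Ccl25 receptor, reached 0.872 CPM in the libraries labelled Il17ra-/- and 1.28 CPM in those labelled wild type.

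Ackr1, which encodes a chemokine-binding receptor of venular endothelium, stood at 23.2, 34.2, 31.9, 28.9 and 39.7 CPM in replicates 1 to 5 labelled Il17ra-/-, against 36.1, 90.7, 52.1 and 45.5 CPM in replicates 1 to 4 labelled wild type. Only Il17ra-/- replicate 5 reached into the range of the libraries labelled wild type. It did not pass (log2 fold change −0.83, SE 0.23, edgeR adjusted p = 0.0744) and was called under 4 of 18 alternatives, with adjusted p from 0.0127 to 0.177 over them. Without wild-type replicate 2 its log2 fold change was −0.49, and with Il17ra-/- replicate 1 also left out it was −0.40. Ackr4, which encodes the scavenger of Ccl19 and Ccl25, gave 0.59 on the log2 scale (edgeR adjusted p = 0.225). Ccrl2, whose product binds the chemoattractant chemerin, gave 0.46 (edgeR adjusted p = 0.415), and 0.27 without wild-type replicate 3. Ackr2, which encodes a scavenger of inflammatory CC chemokines, ranged from 55.2 to 80.5 CPM in the libraries labelled Il17ra-/- and from 44.5 to 80.8 CPM in those labelled wild type (log2 fold change 0.01, edgeR adjusted p = 0.985). The gene of the Ccl27a receptor, Ccr10, did not exceed 1.37 CPM in the libraries labelled Il17ra-/- or 1.87 CPM in those labelled wild type (log2 fold change −0.57, edgeR adjusted p = 0.821), and its log2 fold change was −0.08 without wild-type replicate 3, −0.29 without Il17ra-/- replicate 3, and −0.98 without wild-type replicate 2 or without Il17ra-/- replicate 5.

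**Figure D5:**
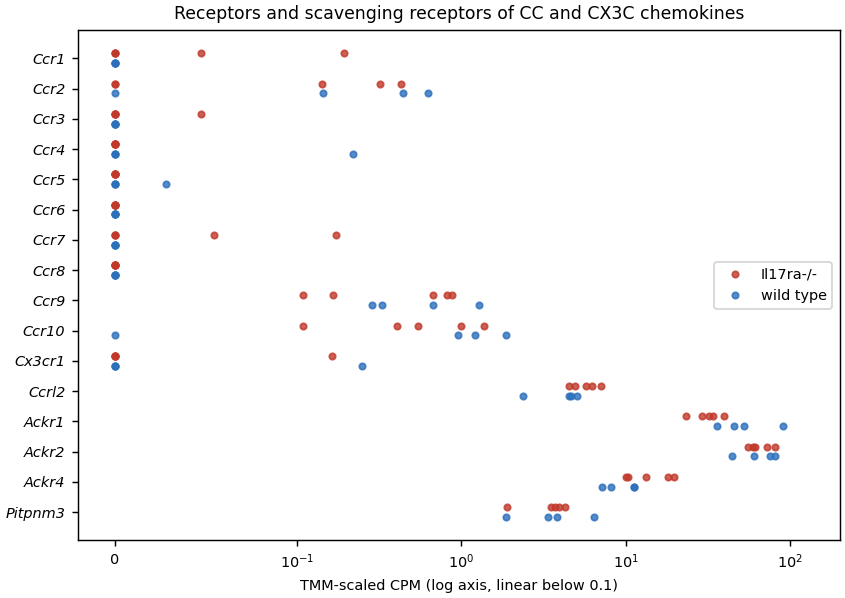
TMM-scaled CPM (x axis, logarithmic, linear below 0.1) of 16 receptors and scavenging receptors of CC and CX3C chemokines, 1 point per library, with libraries labelled Il17ra-/- in red above those labelled wild type in blue. Ccr1 to Ccr8 and Cx3cr1 stay below 1 CPM, while Ackr1, Ackr2 and Ackr4 lie above 7 CPM in every library.

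The other CC ligands were low. Of 16 further ligand genes, 8 had no count in any library, a share near that over all genes (27837 of 55536). The filter was passed by 2, and none was called (all tested genes 3.06%). The 2 were Ccl6 (0.744 ± 0.434 CPM, n = 5, in the libraries labelled Il17ra-/- and 0.221 ± 0.331 CPM, n = 4, in those labelled wild type, edgeR adjusted p = 0.442) and Ccl9 (adjusted p = 0.616), both ligands made by myeloid cells. Their log2 fold changes were positive, at 1.73 and 1.19, and their median was 1.46. Ccl6 moved to 3.62 without wild-type replicate 1, and Ccl9 ranged from 0.79 without wild-type replicate 2 to 1.83 without wild-type replicate 4. Ccl21a, Ccl21b and Ccl21c, whose products share CCR7 with Ccl19, are near-identical copies, so their counts of 0 cannot be read as absence.

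Of 14 genes for processing and presenting chemokines, all were tested, none was called (all tested genes 3.06%) and the median log2 fold change was 0.02. The smallest p belonged to Sdc4, a syndecan whose heparan sulphate binds chemokines (log2 fold change −0.40, edgeR adjusted p = 0.114). Its groups were separate by a narrow gap, at most 179 CPM in the libraries labelled Il17ra-/- and at least 180 CPM in those labelled wild type. Mmp2, whose product cleaves Ccl7 protein, gave −0.21 (edgeR adjusted p = 0.353), also without overlap. Of all tested genes, 4.56% were lower without overlap. Sdc1, another syndecan, gave 0.25 (edgeR adjusted p = 0.372) and Ndst1, a heparan sulphate sulphotransferase gene, 0.25 (edgeR adjusted p = 0.428). Sdc1 gave 0.15 without Il17ra-/- replicate 5, and Ndst1 gave 0.11 without wild-type replicate 2 and 0.39 without wild-type replicate 4.

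Of 22 regulators of chemokine transcription and messenger RNA decay, 7 fell and none rose (all tested genes 1.71% lower). A negative log2 fold change was found for 19 (all tested genes 50.3%), with a median of −0.36 (all tested genes −0.0027). This list was chosen with earlier results of these data known, so its counts are a description and no independent support. Nfkbia, which encodes the NF-κB inhibitor IκBα and is itself an NF-κB target, averaged 154 ± 22.7 CPM (n = 5) in the libraries labelled Il17ra-/- and 391 ± 83.6 CPM (n = 4) in those labelled wild type (log2 fold change −1.35, SE 0.15, edgeR adjusted p = 2.80e-04). Arid5a, whose product stabilises inflammatory transcripts, averaged 25.5 ± 9.98 CPM in the libraries labelled Il17ra-/- and 112 ± 29.7 CPM in those labelled wild type (−2.13, SE 0.25, adjusted p = 3.78e-04). The κB co-regulator gene Bcl3 fell by 1.57 on the log2 scale (adjusted p = 4.10e-04). Zc3h12a, which encodes an RNase that degrades inflammatory transcripts, fell by 1.31 (adjusted p = 2.17e-04). The 7 also held Nfkbiz (−1.39), Tnfaip3 (−0.63) and Cebpd (−0.69), of which Cebpd lost its call under 8 of 18 alternatives. The NF-κB subunit genes Nfkb1, Nfkb2, Rela, Relb and Rel did not pass, with log2 fold changes from −0.12 to −0.48.

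Most inducers of these chemokines were too low to test. Of 16 cytokine genes, 4 had no count in any library (27837 of all 55536 genes), among them Il17a and Il1b. The filter was passed by 5. Il6 fell, at 91.6 ± 48.9 CPM (n = 5) in the libraries labelled Il17ra-/- and 294 ± 179 CPM (n = 4) in those labelled wild type (log2 fold change −1.68, SE 0.40, edgeR adjusted p = 0.0375). Its groups overlapped, and 7 of 18 alternatives did not call it, with adjusted p up to 0.109, among them the fits without wild-type replicate 2 or 4 and without Il17ra-/- replicate 1, 2, 3 or 4. Tnf (at most 0.590 CPM in the libraries labelled Il17ra-/- and 1.84 CPM in those labelled wild type, adjusted p = 0.374), Tnfsf11 (adjusted p = 0.494) and Il17d (log2 fold change −0.30, adjusted p = 0.508) did not pass, and the median of the 5 was −0.30. Without wild-type replicate 2 the log2 fold change of Il17d was −0.06.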

How the data were processed

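TRIzol and RNeasy extraction and TruSeq v2 libraries are recorded per the labels' protocols. The submitters' processing notes name STAR without a version. The deposited values are raw counts of read pairs per gene, summed over exons by the authors with featureCounts 1.6.0 and GENCODE M21 (GRCm38), per the file headers. With these settings multi-mapping reads and reads in exons shared by 2 genes are not counted, and strand is not used.

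Genes passing edgeR's default filterByExpr rule (16039) were tested with edgeR 4.0.16 in R 4.3.3 (TMM scaling, quasi-likelihood test, two-sided, genotype label as the only term, Benjamini-Hochberg adjustment over all tested genes, threshold 0.05). SE was derived from the fold change and the F statistic. Member levels were also compared by exact permutation tests on log2(CPM + 0.5). The procedure was tested on simulated counts. Alternatives were other scalings, filters, DESeq2 1.42.0, limma voom 3.58.1, left-out libraries and a replicate block.

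The members and lists were chosen with earlier results of these data known. Named genes are the members, Il17ra, up to 4 genes with the smallest p per list, the 3 genes nearest in profile to each called member, and genes sharing exons with a member. Other named genes and markers, the TATA motif and the ratios were chosen after values were seen. P-values measure the spread between libraries; no batch label was available. Sequences are from RefSeq.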

Additional observations from a re-analysis of the deposited data

How the results depend on the processing

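Each member and named gene was recomputed under up to 18 alternatives. The calls of Ccl2 and Ccl7 held under all 18, with log2 fold changes from −1.41 to −0.81 and from −1.81 to −0.98 and adjusted p up to 0.0403 and 0.0382, and no other member was called under any. The number of genes called over all genes, 491 in the main fit, was 1017 with DESeq2 and ranged from 275 to 567 when 1 library was left out, the lowest without Il17ra-/- replicate 3 and 323 without Il17ra-/- replicate 1. The cause was not tested.

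The log2 fold change of Cx3cl1 ranged from −0.3434 to 0.0333 with 1 library left out, positive without wild-type replicate 1 (0.0333) and without Il17ra-/- replicate 4 (0.0046). Its mean difference in log2(CPM + 0.5) ranged from −0.3533 to 0.0261, positive without the same libraries (0.0019 and 0.0261). Ccr10 changed sign with limma voom (0.0457). The log2 ratio of Ccl11 to Ccl8 ranged from −0.1808 to 0.1005 when 1 library was left out, positive in 6 of 9 (0.0278, 0.1005, 0.002, 0.0615, 0.0504 and 0.0968). Among receptors, 1 gene was called without a filter, with DESeq2, under the replicate block and without wild-type replicate 1 (range 0 to 1 over left-out libraries). Among processing genes, 1 was called with DESeq2. The count of inducers was 0 with wild-type replicate 2 and Il17ra-/- replicate 1 both left out, and 0 to 1 with 1 library left out. DESeq2 called 12 regulators. The exact tests gave p = 0.0357 for Ccl27a without wild-type replicate 4 and for Ccl25 without wild-type replicate 3.

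Labels give both groups replicate numbers 1 to 4. Same-numbered libraries deviated from their group means with correlations of 0.02 to 0.09, so the numbers were not taken as pairs. With the replicate number as a block, 363 genes and 2 members were called, Ccl2 at −1.27 and Ccl7 at −1.56 on the log2 scale. Low counts limit Ccl19, Ccl25 and Ccl27a, and with 4 and 5 libraries the exact test cannot go below 0.0159.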
